A study of Rattus norvegicus with 6 samples.

Results

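The NRF2 pathway and antioxidant genes comprised 10 genes chosen by symbol, Hmox1, Nqo1, Gclc, Gclm, Txnrd1, Srxn1, Slc7a11, Nfe2l2, Keap1 and Sqstm1, out of 32623 gene identifiers measured in the series. Each symbol matched 1 identifier, and all 10 passed the filter on low counts. RNA was sequenced from primary liver sinusoidal endothelial cells of Han Wistar rats, the cells that line the capillaries of the liver. The cells shared a perfused device with hepatocytes, stellate cells and macrophages for 48 h under a shear stress of 1.15 dyn/cm2. The pressure was 12 mmHg in the 3 pathological libraries and 1 mmHg in the 3 physiological libraries. No sex, age or genetic change is given for the rats, and both pressures shared the device, the shear stress and the cell mixture.

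NRF2, the product of Nfe2l2, is a transcription factor that is destroyed in resting cells because KEAP1 delivers it to a ubiquitin ligase. Oxidants and electrophiles act on KEAP1, NRF2 then accumulates, and with a small MAF protein it binds antioxidant response elements (AREs) in the promoters and enhancers of genes for glutathione synthesis, thioredoxin recycling and detoxification. Hmox1, which encodes heme oxygenase 1, is a target that is also held down by the heme-sensing repressor BACH1 and induced by other stress factors. In endothelial cells NRF2 activity is known to respond to laminar flow and to limit oxidative injury.

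Promoter windows from RefSeq (build GRCr8, 250 bases before to 50 after the start) were at hand for 9 of the 10 genes, in 10 windows because Txnrd1 had 2. Hmox1 had no entry. Both strands were searched for the ARE core TGACNNNGC and for TGANTCA, the AP-1 type element that small MAF partners also bind. A sequence TGANTCAGC holds TGANTCA and resembles the ARE core. TGACNNNGC occurred in 12.1% and TGANTCA in 7.33% of all 33469 windows. The 3 stretches below show where they lay in 2 genes whose profile was close to that of Hmox1, Gclm and Txnrd1, and in 1 whose profile was not, Srxn1, with the matched letters in capitals. Positions are counted from the start of the transcript, with -1 the base before it and 1 its own base.

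Gclm, chr2:213031935-213032034, plus strand: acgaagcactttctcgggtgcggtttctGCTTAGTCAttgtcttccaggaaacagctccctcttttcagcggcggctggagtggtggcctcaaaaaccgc

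Txnrd1, chr7:22755935-22756034, minus strand: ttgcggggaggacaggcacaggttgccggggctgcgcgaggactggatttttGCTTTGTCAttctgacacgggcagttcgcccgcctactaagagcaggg

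Srxn1, chr3:161064712-161064821, plus strand: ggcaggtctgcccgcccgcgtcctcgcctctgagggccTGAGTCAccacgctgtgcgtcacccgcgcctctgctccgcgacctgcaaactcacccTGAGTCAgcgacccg

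The ARE core began at -172 in Gclm and at -78 in 1 of the 2 windows of Txnrd1, both times on the opposite strand. Another match lay in the Nfe2l2 window, at 39. Srxn1 had no ARE core but held TGAGTCA at -62 and again at -5, where the letters run on as TGAGTCAGC, a form found in 1.11% of all windows. The letters were not found in the windows of Nqo1, Gclc, Slc7a11, Keap1 and Sqstm1. Of these, Sqstm1 had a profile closer to that of Hmox1 than Gclm and Txnrd1 had. These matches are descriptions of the windows and not evidence of binding.

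The libraries differed in depth and in transcripts of other liver cells. Totals ran from 11426299 to 23754767 counts at pathological and from 8925149 to 24025406 counts at physiological pressure. The hepatocyte markers, of which 24 of 25 were tested, summed to 471, 776 and 69381 CPM (counts scaled to the library total) in pathological replicates 1, 2 and 3 and to 310.1, 51571 and 35012 CPM in physiological replicates 1, 2 and 3. Albumin (Alb) stood at 132, 337 and 28367 CPM and at 44.7, 23611 and 16278 CPM in the same order. The sinusoidal marker Lyve1 was likewise high in the same libraries, with 41.3, 75.9 and 2015 CPM at pathological and 248, 1695 and 1618 CPM at physiological pressure. The endothelial cadherin Cdh5 lay between 184 and 319.9 CPM in every library. Endothelial markers, 13 of 14 tested, summed to 996, 839 and 2585 CPM at pathological and 1744, 3081 and 1793 CPM at physiological pressure. Of these 11 had negative log2 fold changes (median -0.63), as had 13 of 14 tested sinusoidal markers (median -0.70), and 0 of either list passed the test. The part of this in the results was not tested. Macrophage markers, 14 of 15 summed and 13 tested, came to 46.1 to 1298 CPM at pathological and 773 to 1252 CPM at physiological pressure. Adgre1 was at 0 in pathological replicate 2, where Cd68 was at 5.59 CPM. Stellate cell markers, 14 of 15 summed and 12 tested, came to 519.8, 433 and 2942 CPM at pathological and 697, 1931 and 1706 CPM at physiological pressure. That sum was highest in pathological replicate 3, although Pdgfrb and Acta2 were at 0 there. Of the genes that averaged over 50 CPM in the other 5 libraries, 2.31%, 2.07% and 8.47% were under 1 CPM in pathological replicates 1, 2 and 3, and 3.37%, 0.538% and 5.34% in physiological replicates 1, 2 and 3. Fewer cells of a type and less RNA per cell cannot be told apart in such bulk samples.

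Of the 10 genes, 8 were highest in pathological replicate 2 and 7 were lowest in pathological replicate 3. The shares of all tested genes with these extremes were not counted, so whether the counts are particular to the 10 genes is not known. On unscaled totals Keap1 was instead highest in pathological replicate 1, at 100.2 against 91.8 CPM in pathological replicate 2. In edgeR's quasi-likelihood test 0 of the 10 genes passed a Benjamini-Hochberg adjusted p of 0.05, where 0% of 12742 tested genes did, and each of the 10 had an edgeR adjusted p of 1. At an unadjusted p under 0.05 there were 0 of the 10 genes and 33 of all genes, or 0.259%. DESeq2 called 0 of the 10 against 0.252% of all genes, and limma-voom called 0 of the 10 and 0% of all genes. With sample weights in limma-voom 5 of the 10 genes and 19.8% of all genes had an unadjusted p under 0.05, and 0 of the 10 passed after adjustment. All 10 fitted log2 fold changes (also called log2 ratios, 12 mmHg over 1 mmHg) were positive, where 52.5% of tested genes were, with a median of 0.71 against 0.05 for all tested genes, and on unscaled totals 9 of the 10 were positive, Slc7a11 being at -0.13.

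**Figure D1:**
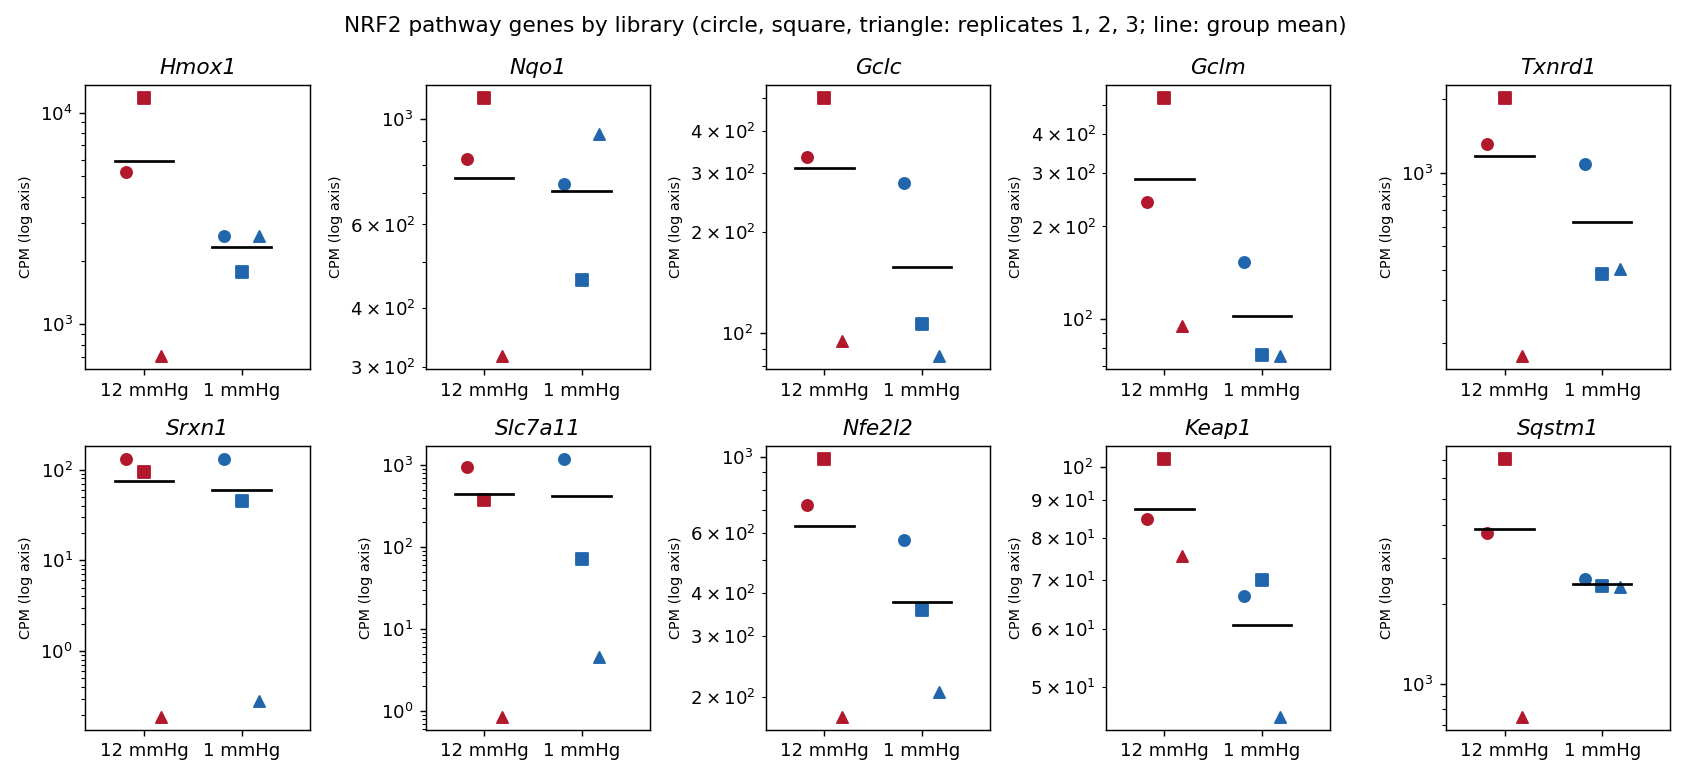
Levels in CPM, on log axes that differ between panels, of the 10 genes in the 3 pathological (12 mmHg, red) and 3 physiological (1 mmHg, blue) libraries, with a line at each group mean. Pathological replicate 2 (square) was the highest library for 8 of the 10 genes and pathological replicate 3 (triangle) the lowest for 7. The shares of all tested genes with these extremes were not counted.

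Hmox1 (ENSRNOG00000014117) stood at 5262, 11757 and 708 CPM in the pathological libraries and at 2618, 1771 and 2602 CPM in the physiological libraries. On scaled totals the physiological libraries lay close together, and the pathological libraries lay on both sides of them. The group means were 5909 ± 5552 CPM at pathological and 2330.1 ± 485 CPM at physiological pressure (SD, n = 3 each), a log2 fold change of 1.34 with 95% confidence limits of -0.95 and 3.63. Without pathological replicate 2 the log2 fold change was 0.37. On unscaled totals the physiological libraries stood further apart, with Hmox1 at 3326, 1796 and 2055 CPM.

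The thioredoxin and glutathione synthesis genes had the same leading library. Txnrd1 (ENSRNOG00000009088), the cytosolic thioredoxin reductase, stood at 1305, 2025 and 177 CPM at pathological and at 1089, 385 and 404 CPM at physiological pressure. Its order of libraries matched that of Hmox1 at both ends, with pathological replicate 2 highest and pathological replicate 3 lowest, and its log2 fold change was 0.90 (95% limits -1.22 and 3.03), with 0.25 without pathological replicate 2 and 1.67 without physiological replicate 1. Gclm (ENSRNOG00000013409), the modifier subunit of the enzyme that limits glutathione synthesis, stood at 239, 526 and 94.6 CPM at pathological and at 154, 76.1 and 75.5 CPM at physiological pressure. Its log2 fold change was 1.49 (95% limits -0.28 and 3.27, unadjusted p = 0.088 and adjusted p = 1 with edgeR), and it was 0.72 without pathological replicate 2 and 2.01 without physiological replicate 1. Gclc (ENSRNOG00000006302), the catalytic subunit of the same enzyme, stood at 333, 502 and 95.1 CPM at pathological and at 281, 107 and 85.7 CPM at physiological pressure, with a log2 ratio of 0.98 (95% limits -0.87 and 2.82) that was 0.45 and 1.78 without those libraries. For both subunits pathological replicate 3 lay within the range of the physiological libraries.

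Nqo1 (ENSRNOG00000012772), a quinone reductase used as a standard readout of NRF2 activity, stood at 824, 1109 and 317 CPM at pathological and at 730.0, 458 and 931 CPM at physiological pressure. The groups interleaved, and the log2 fold change was 0.09 (95% limits -1.46 and 1.63). Without pathological replicate 2 it was -0.30.

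Srxn1 and Slc7a11 had a profile of their own. Srxn1 (ENSRNOG00000031167), the sulfiredoxin that restores overoxidised peroxiredoxins, stood at 132, 92.8 and 0.19 CPM at pathological and at 132, 44.8 and 0.285 CPM at physiological pressure, and the low values rest on 2 counts in each library. Slc7a11 (ENSRNOG00000010210), the cystine importer that feeds glutathione synthesis, stood at 955, 371 and 0.853 CPM at pathological and at 1198, 70.5 and 4.56 CPM at physiological pressure, with 9 counts in pathological replicate 3 and 32 in physiological replicate 3. Both genes were near 0 in replicate 3 of each pressure, Slc7a11 was highest in physiological replicate 1, and Srxn1 was about equal in replicate 1 of each pressure. The log2 fold changes were 0.34 for Srxn1 (95% limits -4.11 and 4.79) and 0.06 for Slc7a11 (95% limits -4.57 and 4.69). The direction of both depended on single libraries, and for Slc7a11 also on the scaling, with -0.13 on unscaled totals. Replicate 3 of each pressure also had the larger shares of other genes under 1 CPM, and the part of that in the result was not tested.

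Nfe2l2 and its partners in the pathway had profiles with pathological replicate 2 highest. Nfe2l2 (ENSRNOG00000001548) stood at 721, 987 and 175 CPM at pathological and at 573, 356 and 206 CPM at physiological pressure, with a log2 ratio of 0.73 (95% limits -1.05 and 2.51). That ratio was 0.25 without pathological replicate 2 and 1.25 without physiological replicate 1. Sqstm1 (ENSRNOG00000003147) encodes p62, an autophagy receptor that binds KEAP1 and is itself an NRF2 target, and it stood at 3713, 7117 and 749.5 CPM at pathological and at 2491, 2341 and 2318 CPM at physiological pressure. As with Hmox1, on scaled totals the physiological libraries lay close together (2384 ± 94.1 CPM, SD, n = 3) and the pathological libraries spread around them. Sqstm1 had a log2 ratio of 0.70 (95% limits -1.30 and 2.69) that was -0.085 without pathological replicate 2. On unscaled totals its physiological libraries stood further apart, at 3165, 2375 and 1831 CPM.

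Keap1 (ENSRNOG00000020878) was the 1 gene of the 10 whose groups did not overlap on scaled totals, where 1.56% of tested genes were higher without overlap. On unscaled totals its groups did overlap. Pathological replicate 3, at 70.2 CPM, was then below physiological replicates 1 and 2, at 84.7 and 71.1 CPM. On scaled totals Keap1 stood at 84.7, 103 and 75.5 CPM at pathological and at 66.6, 70.1 and 45.5 CPM at physiological pressure. The difference was small, with a log2 ratio of 0.53 (95% limits -0.92 and 1.98, unadjusted p = 0.424 and adjusted p = 1 with edgeR). It stayed between 0.35 and 0.68 with any 1 library left out.

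**Figure D2:**
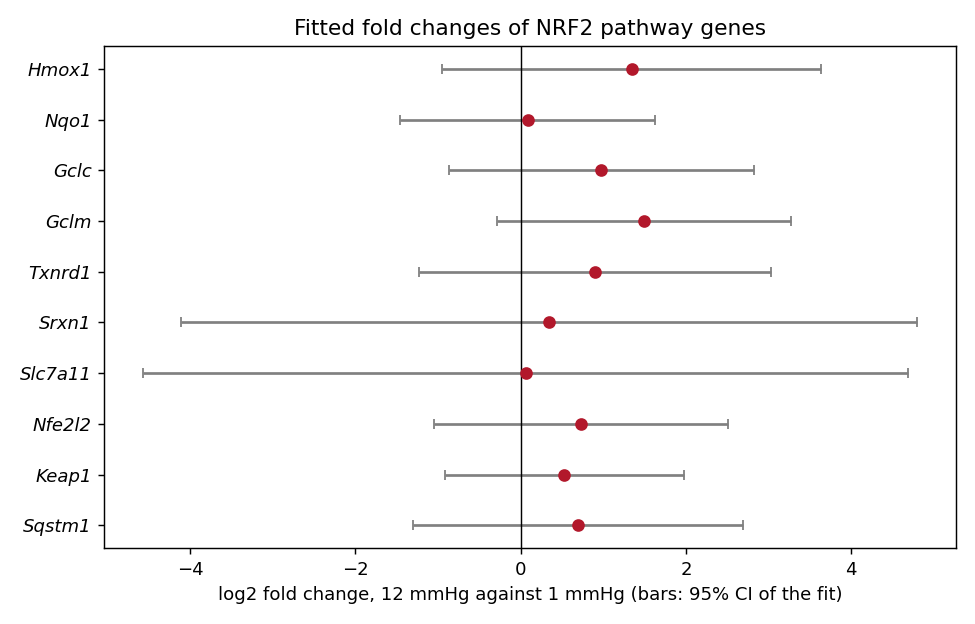
Fitted log2 fold change of each gene, 12 mmHg against 1 mmHg, with bars for the 95% confidence interval of the edgeR fit. All 10 points lie right of 0, from 0.06 for Slc7a11 to 1.49 for Gclm, and all 10 bars cross 0. On unscaled totals Slc7a11 would lie at -0.13.

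A pattern chosen after the values were seen described most of the genes. In 7 of the 10, Hmox1, Gclc, Gclm, Txnrd1, Nfe2l2, Keap1 and Sqstm1, pathological replicates 1 and 2 were both above every physiological library, a pattern held by 13.7% of tested genes. On unscaled totals it also held for Nqo1, making 8. In 4 of the 7, Hmox1, Txnrd1, Nfe2l2 and Sqstm1, pathological replicate 3 was also below all other libraries, where 5.99% of tested genes had both features. Among the 3 libraries poor in hepatocyte transcripts, pathological replicates 1 and 2 were 2.01 and 4.49 times physiological replicate 1 for Hmox1, 1.56 and 3.42 times for Gclm, 1.20 and 1.86 times for Txnrd1, and 0.997 and 0.703 times for Srxn1. Both lay above it for 8 of the 10 genes, the exceptions being Srxn1 and Slc7a11, and for 30.6% of all tested genes. Among the 3 libraries rich in hepatocyte transcripts, pathological replicate 3 was below both physiological libraries for 7 of the 10 genes and for 33.8% of all tested genes. The median log2 fold change of the 10 genes was 0.58 within the poor libraries and -1.12 within the rich libraries, where all tested genes had medians of -0.10 and -0.58, and each subset has 1 library in a group. In edgeR fits of the rich libraries 0 of the 10 genes and 1.93% of all genes passed the adjusted threshold. The part of hepatocyte content in the result was not tested.

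Whether Hmox1 followed the other NRF2 targets was asked library by library. Each gene's log2 CPM was centred on its mean over the 6 libraries, and the median of Nqo1, Gclc, Gclm, Txnrd1, Srxn1 and Slc7a11 was set beside Hmox1. Hmox1 and that median were 0.89 and 0.92 in pathological replicate 1, 2.05 and 1.73 in pathological replicate 2, and -2.00 and -1.48 in pathological replicate 3. They were -0.12 and 0.66 in physiological replicate 1, -0.68 and -0.66 in physiological replicate 2, and -0.13 and -1.04 in physiological replicate 3. On scaled totals Hmox1 and the median had the same sign in 5 of the 6 libraries. The exception was physiological replicate 1, where Hmox1 was near its own mean, at -0.12, and all 6 targets lay above Hmox1. In physiological replicate 3, although the signs agreed, 5 of the 6 lay below Hmox1. The signs on unscaled totals, and the share of all tested genes that agreed as often, were not counted. The distance of Hmox1 from the median differed by -0.11 on the log2 scale between pathological and physiological pressure, less than the spread between libraries of 0.67 (pooled SD). Without the libraries numbered 22 and 23 (replicate 3 of each pressure), an alternative chosen after seeing the data, that difference was 0.70. It was 1.12 within the libraries poor in hepatocyte transcripts and -0.81 within those rich in them. The libraries fell into separate clusters by hepatocyte content, with 3 in each, so no correlation across libraries was computed.

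**Figure D3:**
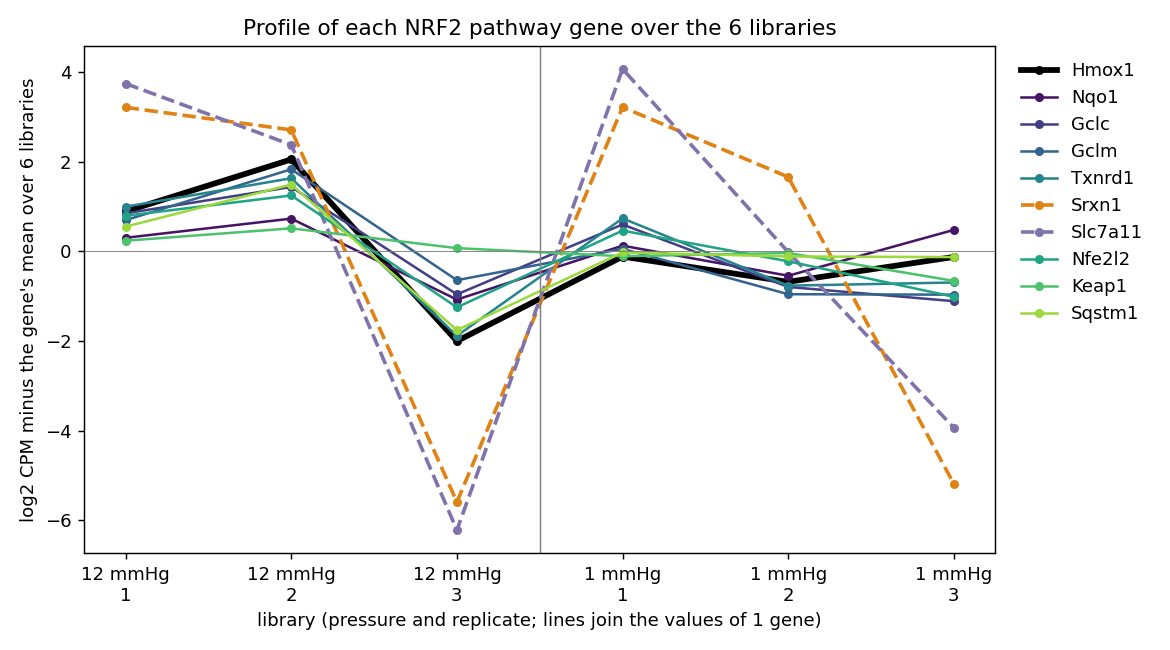
Log2 CPM of each gene minus its own mean over 6 libraries, with the 3 libraries at 12 mmHg left of the 3 at 1 mmHg and lines joining the values of 1 gene. Hmox1 (black) runs with most genes, at 2.05 in pathological replicate 2 and -2.00 in pathological replicate 3, while Srxn1 and Slc7a11 (dashed) peak in replicate 1 of each pressure and drop in replicate 3 of each.

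Likeness to Hmox1 was measured as the root mean square difference between centred log2 CPM profiles over the 6 libraries, with the 9536 genes averaging at least 1 log2 CPM ranked from most to least alike. Sqstm1 ranked 20 (0.37), Txnrd1 61 (0.46), Nfe2l2 285 (0.65), Gclm 335 (0.68), Gclc 380 (0.70), Nqo1 508 (0.75) and Keap1 1652 (1.14), while the median gene differed by 2.03. Slc7a11 ranked 8225 (3.12) and Srxn1 8344 (3.19). Without libraries 22 and 23 the ranks were 6390 for Slc7a11 and 2962 for Srxn1, and between 8 for Gclm and 1878 for Keap1 for the others. Single libraries also moved the ranks. Without pathological replicate 2 Gclm ranked 1028, Gclc 931, Nfe2l2 520, Nqo1 291 and Txnrd1 188. Without pathological replicate 3 Gclm ranked 34, Sqstm1 79, Txnrd1 246, Nfe2l2 535, Nqo1 808 and Keap1 977. Without physiological replicate 1 Txnrd1 ranked 20, Sqstm1 67 and Gclm 505. Without physiological replicate 2 Txnrd1 ranked 113, and without physiological replicate 3 Sqstm1 ranked 52. Slc7a11 and Srxn1 ranked at least 7085 with any 1 library left out. The 5 most alike genes were Osgin1, Chordc1, Maoa, Prps1 and Clk1, which differed from Hmox1 by 0.22 to 0.25. Osgin1, an oxidative stress growth inhibitor that is a known NRF2 target, ranked 1 and stood at 620.2, 1628 and 109 CPM at pathological and at 401, 343 and 348 CPM at physiological pressure. With any 1 library or libraries 22 and 23 left out, Osgin1 ranked between 1 and 34.

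**Figure D4:**
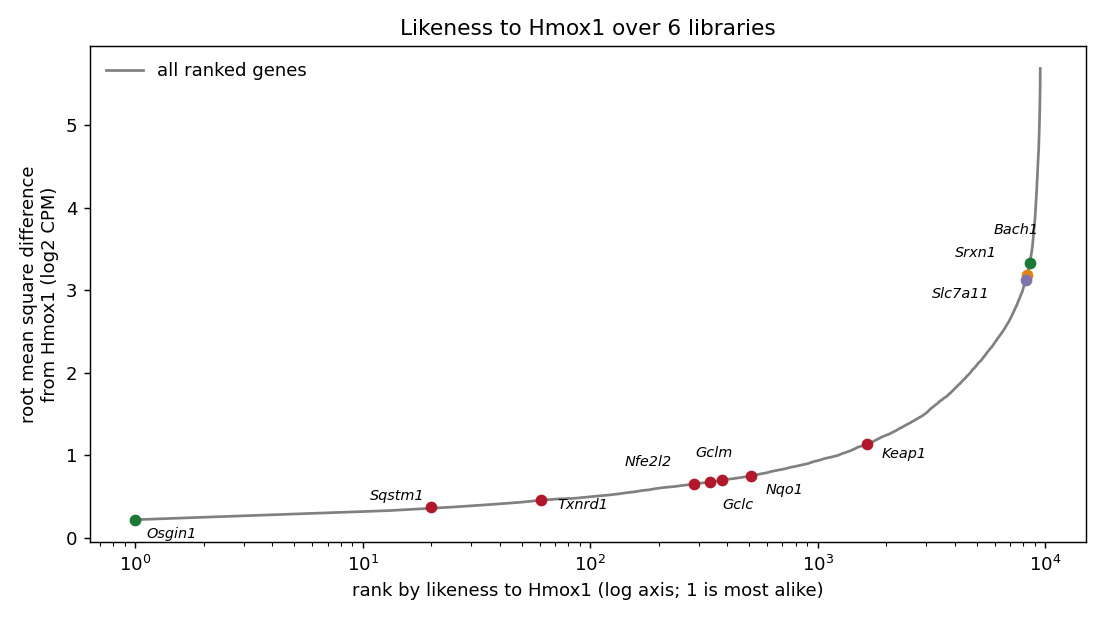
Root mean square difference from Hmox1 in log2 CPM (vertical axis) against rank by likeness (horizontal log axis) for 9536 genes (grey line), with the NRF2 pathway genes, Osgin1 and Bach1 marked. Osgin1, Sqstm1 and Txnrd1 lie at the left end at ranks 1, 20 and 61, and Slc7a11, Srxn1 and Bach1 at the right end at ranks 8225, 8344 and 8566.

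The wider pathway held no gene past the threshold in any list and gave mixed directions. Of the other NRF2 regulators, 7 of 13 tested genes had positive and 6 negative log2 fold changes, with a median of 0.05, as for all tested genes. Bach1, the repressor of Hmox1, stood at 329, 138 and 0.19 CPM at pathological and at 428, 23.0 and 0.855 CPM at physiological pressure, highest in physiological replicate 1 and near 0 in replicate 3 of each pressure, as Slc7a11 was. Maff, a small MAF partner of NRF2, stood at 361, 662 and 409 CPM at pathological and 255, 286 and 307 CPM at physiological pressure. It was higher without overlap, as 1.56% of tested genes were. Its log2 fold change was 0.76 (95% limits -0.52 and 2.03). Syvn1, a ubiquitin ligase of the endoplasmic reticulum that can degrade NRF2, lay lower without overlap, as 3.05% of tested genes did, at 67.5 ± 11.3 CPM at pathological and 146 ± 69.7 CPM at physiological pressure (SD, n = 3 each).

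The glutathione list split by gene. It had 6 of 20 tested genes positive and 14 negative, with a median of -0.15. Gsr, which recycles oxidised glutathione, stood at 375, 503 and 43.3 CPM at pathological and 307, 104 and 88.2 CPM at physiological pressure, and Slc3a2, the partner chain of Slc7a11, at 2456, 2821 and 181 CPM and at 1576, 892 and 802 CPM. Both had the order of Hmox1 at the top and bottom. Gpx1, the main cytosolic glutathione peroxidase, ran the other way, with 41.2, 33.6 and 1415 CPM at pathological and 29.4, 635 and 848 CPM at physiological pressure, high where hepatocyte markers were high. The members with the smallest unadjusted p were Gpx2, at 0.572, 0.284 and 0 CPM and at 0.395, 6.13 and 0 CPM, and Gstt1, with a log2 ratio of -1.56 (95% limits -5.29 and 2.17).

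Among thioredoxin and peroxiredoxin genes 6 of 14 were positive, with a median of -0.03. Prdx1, a peroxide-reducing NRF2 target, stood at 1044, 1865 and 909.7 CPM at pathological and 799, 738 and 884 CPM at physiological pressure. It was higher without overlap, as 1.56% of tested genes were, but on unscaled totals pathological replicate 3 fell below physiological replicate 1. The log2 ratio of Prdx1 was 0.66 (95% limits -0.70 and 2.01). Sesn2, a stress-induced sestrin, stood at 409.5, 576 and 38 CPM at pathological and 291, 129.6 and 122 CPM at physiological pressure, and ranked 51 by likeness to Hmox1. Thioredoxin itself, Txn1, averaged 563 ± 149 CPM at pathological and 661 ± 325 CPM at physiological pressure (SD, n = 3 each).

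The NADPH supply list held 5 positive and 3 negative values, and its median was 0.26. Nadk, which makes NADP from NAD, had a log2 ratio of -1.31 (95% limits -2.97 and 0.35), and Idh1, an NADPH-producing dehydrogenase, one of 0.71 (95% limits -0.64 and 2.07). Enzymes that make or remove oxidants had 4 of 9 genes positive and a median of -0.34. Cat, catalase, stood at 116, 29.5 and 1451 CPM at pathological and 122, 592 and 553 CPM at physiological pressure, high in the libraries rich in hepatocyte transcripts. Pon2 and the mitochondrial superoxide dismutase Sod2 had the smallest unadjusted p of that list, with log2 fold changes of -0.62 and -0.40 (95% limits -2.42 and 1.18 for Pon2, -1.77 and 0.96 for Sod2).

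The heme and iron list had 9 of 15 genes positive, with a median of 0.15. Blvrb, a biliverdin reductase, stood at 113, 129 and 191 CPM at pathological and at 111, 112 and 60.4 CPM at physiological pressure. It was higher without overlap, as 1.56% of tested genes were, but on unscaled totals pathological replicates 1 and 2 fell below physiological replicate 1. The ferritin chains Fth1 and Ftl1, which store the iron that heme oxygenase frees and are NRF2 targets, averaged 4901 ± 2023 and 7204 ± 1914 CPM at pathological and 4968 ± 1852 and 5570.1 ± 2189 CPM at physiological pressure (SD, n = 3 each). Hmox2, the constitutive heme oxygenase, had a log2 ratio of 0.52 (95% limits -1.10 and 2.15) and ranked 2800 by likeness to Hmox1, and Fech, which completes heme synthesis, one of -0.94 (95% limits -3.10 and 1.22). Cd163, a macrophage receptor for hemoglobin, stood at 68.4, 0.0474 and 31.3 CPM at pathological and at 101, 34.3 and 0.428 CPM at physiological pressure. It was near 0 in pathological replicate 2, with 1 count, and in physiological replicate 3, with 3 counts. The detoxification and export list held 8 positive and 4 negative values, and its median was 0.21. Its smallest unadjusted p belonged to Osgin1 and to the efflux pump Abcc2, which averaged 24.3 ± 39.8 CPM at pathological and 7.66 ± 8.78 CPM at physiological pressure (SD, n = 3 each).

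**Figure D5:**
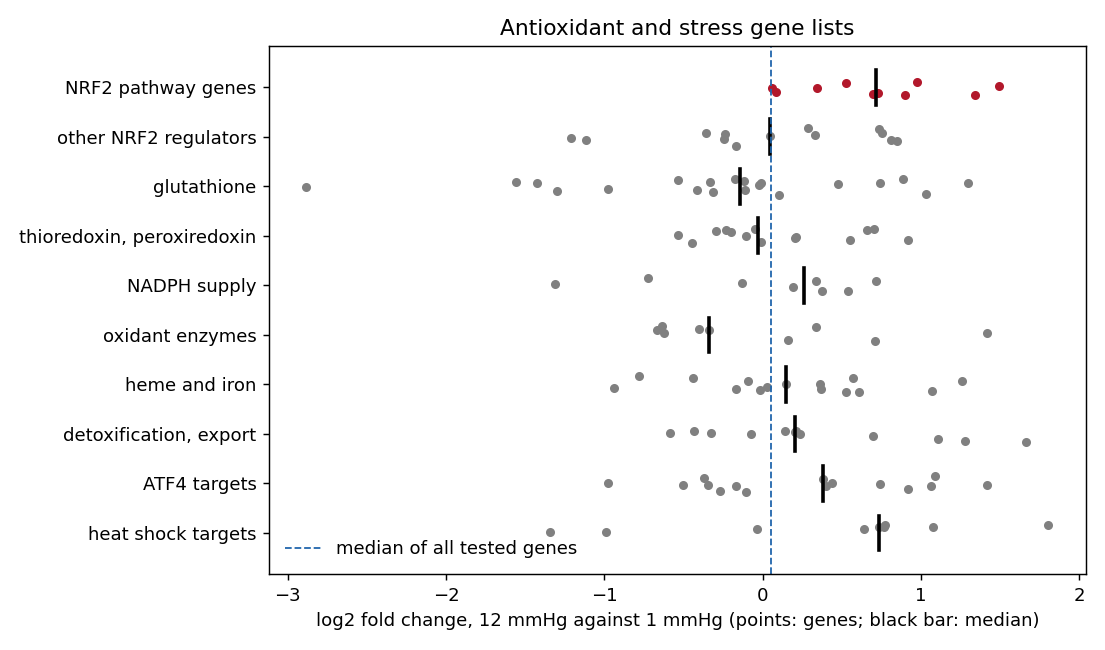
Log2 fold change at 12 mmHg against 1 mmHg of every tested gene (points) in the NRF2 pathway set and in 9 lists of related genes, with a black bar at each list's median and a dashed line at the median of all tested genes. The NRF2 pathway median is 0.71 and the heat shock median 0.73, while the other lists have medians from -0.34 to 0.38. All 9 lists of related genes, heat shock included, hold genes on both sides of 0.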

How the data were processed

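The authors deposited expected counts, estimated reads per gene before normalization, with 1 library per file, per the file headers. The submitters' processing notes name STAR, RSEM and limma without versions. Genome build, annotation and strand use were "not given in the sources used here", so no locus of the counts is printed. RSEM shares reads among similar genes, so between 4.33% and 10.4% of values per library were not whole, and genes with near-identical copies (Hspa1a and Hspa1b, the ferritins) are uncertain, as are overlapping and antisense genes.

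Counts were rounded and tested with edgeR 4.0.16 in R 4.3.3 (quasi-likelihood test, TMM scaling, filterByExpr, no covariate), 12 mmHg against 1 mmHg over 6 libraries, with Benjamini-Hochberg adjustment over all 12742 tested genes, a threshold of 0.05 and two-sided p-values. CPM use TMM-scaled totals, log2 CPM a prior count of 2, and summed marker CPM unscaled totals. Alternatives used DESeq2 1.42.0 and limma 3.58.1. Of 231 listed symbols 216 had exactly 1 identifier, and the rest, Pecam1 among them, were not analysed here. Named genes were the 10 members, the 2 smallest p of each list, fixed examples and the 5 genes closest to Hmox1. 1 fixed example is not reported here. Others (Gsr, Slc3a2, Gpx1, Cat, Hmox2, Hspa1a, Cdh5, Adgre1, Acta2) were chosen after their values were seen. Members and lists were chosen with earlier results of these data known. Replicates were numbered in deposition order. The labels do not say whether replicates came from different animals or cultures. The p-values therefore cover the spread among these libraries alone, and it could be technical. Chi-square tests of counts gave at least 199.8 per degree of freedom between any 2 libraries of a group, so none was counted as a repeat. Promoter letters are from RefSeq's GRCr8 table.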

Additional observations from a re-analysis of the deposited data

How the results depend on the processing

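No setting passed any of the 10 genes at an adjusted p of 0.05, whether the scaling, the low-count filter, the test, a covariate or the libraries were altered. With limma-voom and sample weights 5 of the 10 and 19.8% of all genes had an unadjusted p under 0.05, with an adjusted p of at least 0.207 for the 10, and the median log2 fold change was 1.67 for the 10 and 0.41 for all genes. The count over all genes was 0 except with DESeq2 (41) and with only the 3 libraries at 10000 hepatocyte CPM or more (244, or 1.93%), where 1 pathological library is assumed to vary like the others and the glutathione list (19 genes) had 2 called, Glrx2 and Slc3a2, and the ATF4 list (15 genes) 2, Trib3 and again Slc3a2, all lower and named after their values were seen. In those libraries the median log2 fold change of the 10 genes was -1.12 (all tested genes -0.58), with Hmox1 at -1.61, Nqo1 -1.11, Gclc -0.0026, Txnrd1 -1.14, Srxn1 -6.82, Slc7a11 -5.44, Nfe2l2 -0.68 and Sqstm1 -1.62. With only the 3 libraries under 10000 hepatocyte CPM, Srxn1 was at -0.22 and Slc7a11 at -0.83, and the difference of Hmox1 from the other targets was 1.12, against -0.81 in the rich libraries and 0.70 without libraries 22 and 23. With a term for hepatocyte content Nqo1 was at -0.25, Srxn1 at -2.13 and Slc7a11 at -2.13, with the median of the 10 at 0.12 and of all genes at -0.24. With limma-voom Srxn1 was at -0.043 and Slc7a11 at -0.24. On unscaled totals, added after seeing the data, Slc7a11 was at -0.13. With 1 library left out, ranges were 0.25 to 1.60 for the median of the 10 genes, 0.37 to 1.88 for Hmox1, -0.30 to 0.46 for Nqo1, -0.35 to 1.83 for Srxn1, -1.20 to 3.67 for Slc7a11, -0.085 to 1.19 for Sqstm1 and -0.55 to 0.30 for the Hmox1 difference. The causes of these shifts were not tested. The labels state no pairing. A replicate block of neighbouring sample numbers called 0 genes and put Nqo1 at -0.018 and Slc7a11 at -0.10. Deviations of neighbours correlated at 0.642, -0.214 and 0.391 across genes. Libraries 2 and 3 were both poor in hepatocyte transcripts, 22 and 23 were both rich, and 9 and 11 differed. The correlations thus cannot decide whether neighbours are pairs, and with no pairing in the labels the numbers were not taken as pairs. The values of Srxn1 and Slc7a11 in replicate 3 of each pressure rest on 2 to 32 counts and are imprecise. The part of depth in these low counts was not tested.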

Other observations

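The heat shock list had the median closest to that of the NRF2 pathway genes, 0.73, with 6 of 9 tested genes positive and 0 past the threshold in edgeR's test, and 0 at an unadjusted p under 0.05. Hspa1b, an inducible chaperone, stood at 3451, 5227 and 296 CPM at pathological and at 1366, 703 and 500.2 CPM at physiological pressure, with a log2 ratio (12 mmHg over 1 mmHg) of 1.80 (95% limits -0.55 and 4.15). Bag3, a co-chaperone that works with p62 in autophagy, stood at 963, 2339.6 and 273 CPM at pathological and at 469.9, 646 and 583 CPM at physiological pressure, and ranked 57 by likeness to Hmox1. Hspb1, a small heat shock protein, had a log2 fold change of -0.99. Hspa1a was at 0.0715, 0.0947 and 103 CPM at pathological and at 0, 118 and 143 CPM at physiological pressure. Reads of Hspa1a and Hspa1b may have been divided between these near-identical copies. Besides Bag3, Hspd1 ranked 87, Hspa1b 143 and Hsph1 226 by likeness to Hmox1, closer than Gclm, Gclc and Nqo1. Dnajb1 ranked 1191, Hsf1 2367, Hspe1 3712, Hspb1 3996 and Hspa1a 9532. In 5 of the 9 heat shock genes pathological replicates 1 and 2 were both above every physiological library, as in 13.7% of all tested genes.

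The ATF4 list, targets of the amino acid response that also drives Slc7a11, had 8 of 15 genes positive and a median of 0.38. Ddit4, a stress-induced inhibitor of mTORC1, stood at 101, 254 and 29.3 CPM at pathological and at 74.9, 50.7 and 18.4 CPM at physiological pressure, with a log2 ratio (12 mmHg over 1 mmHg) of 1.42 (95% limits -0.75 and 3.58). Sesn2, described with the thioredoxin genes, had the next smallest unadjusted p of the list. Of the 15 genes 0 passed in edgeR's test, and 0 had an unadjusted p under 0.05.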
